A study of Mus musculus with 60 samples.

Results

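Tissue macrophages were followed through 10 genes, Marco, Chil3, Mrc1, Clec4f, Vsig4, Cd5l, Timd4, Adgre1, Csf1r and Cd68, in lung, liver and forestomach of the same mice. Probes were assigned through the RefSeq accession that the array files give. Of the 10 genes, 9 had a probe, with 12 of the 55681 probes on the array among them, and Cd68 was matched by no accession and is not analysed here. Adgre1 was read by 2 probes and Csf1r by 3, and the brightest probe of each gene was used throughout, with the others given beside it.

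RNA came from 20 male Muta Mouse animals aged about 10 weeks, a transgenic mutation-reporter strain, so that every group, vehicle included, carried the reporter transgene. Benzo(ghi)perylene (BghiP), a polycyclic aromatic hydrocarbon, had been given in olive oil by gavage every day for 28 days at 0 (olive oil alone, D0), 6.25 (D1), 12.5 (D2) or 25 (D3) mg/kg-bw/day. Lung, liver and forestomach were taken 72 hours after the last dose, and RNA was extracted from random sections of whole tissue, which gave 12 groups of 5 mice and 60 arrays. Each array compared tissue RNA, labelled with Cy5, with a reference RNA pooled from 11 mouse cell lines, labelled with Cy3, and values are given as log2 of Cy5 over Cy3. A ratio of 0 therefore means a signal equal to the reference for that probe, and levels can be compared between tissues for the same probe but not between genes. The normalized reference signal was not fully constant. For Chil3 its mean log2 was 8.04 in lung, 8.33 in liver and 8.62 in forestomach, and for Csf1r 12.43, 12.42 and 12.56.

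Most organs hold macrophages that settle there before or soon after birth and renew themselves in place, and each organ gives them its own set of genes. Alveolar macrophages of the lung take up surfactant and inhaled particles, and are known for the scavenger receptor Marco and the chitinase-like protein Chil3. Kupffer cells line the sinusoids of the liver, clear particles and bacteria from the blood, and are known for the lectin Clec4f, the complement receptor Vsig4, the secreted scavenger protein Cd5l and the phosphatidylserine receptor Timd4. The mannose receptor Mrc1 is also carried by liver sinusoidal endothelium. Adgre1, the gene of a classical macrophage surface antigen, and Csf1r, the receptor for the growth factors Csf1 and Il34, are shared by macrophages of most tissues.

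The tissue-restricted members differ in the stretch just upstream of their start sites, which is shown here for the 5 genes that mark lung or liver below, as the 250 bases before the annotated start (RefSeq, GRCm38.p6). Capitals mark GAGGAA or, on the other strand, TTCCTC, the core bound by the macrophage transcription factor PU.1.
Chil3, chr3:106167565-106167814, minus strand: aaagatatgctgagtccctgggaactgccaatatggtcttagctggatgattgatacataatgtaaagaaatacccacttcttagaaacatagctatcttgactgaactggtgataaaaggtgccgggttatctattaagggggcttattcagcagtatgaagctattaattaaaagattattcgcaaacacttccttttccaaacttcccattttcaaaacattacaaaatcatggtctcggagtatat
Marco, chr1:120505025-120505274, minus strand: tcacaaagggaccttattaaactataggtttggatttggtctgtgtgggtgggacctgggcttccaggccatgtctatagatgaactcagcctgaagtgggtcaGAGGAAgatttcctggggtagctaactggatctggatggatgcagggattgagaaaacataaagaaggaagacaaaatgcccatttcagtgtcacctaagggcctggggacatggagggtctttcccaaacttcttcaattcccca
Clec4f, chr6:83656117-83656366, minus strand: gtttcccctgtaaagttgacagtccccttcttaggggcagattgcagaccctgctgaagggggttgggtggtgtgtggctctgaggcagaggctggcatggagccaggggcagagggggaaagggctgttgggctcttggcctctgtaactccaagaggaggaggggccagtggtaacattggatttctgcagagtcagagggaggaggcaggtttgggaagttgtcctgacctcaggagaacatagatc
Vsig4, chrX:96293439-96293688, minus strand: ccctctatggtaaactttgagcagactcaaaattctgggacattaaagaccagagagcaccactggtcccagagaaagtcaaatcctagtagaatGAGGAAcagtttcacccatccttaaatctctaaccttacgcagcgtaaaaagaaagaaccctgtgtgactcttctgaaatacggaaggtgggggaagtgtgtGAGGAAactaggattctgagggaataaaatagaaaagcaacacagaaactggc
Cd5l, chr3:87357631-87357880, plus strand: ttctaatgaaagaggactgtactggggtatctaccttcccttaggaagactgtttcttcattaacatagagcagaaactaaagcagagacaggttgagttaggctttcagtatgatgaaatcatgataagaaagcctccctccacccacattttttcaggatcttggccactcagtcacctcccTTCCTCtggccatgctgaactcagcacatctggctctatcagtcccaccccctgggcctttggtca
Marco held 1 copy of the letters, 146 bases before the start, Vsig4 held 2, at 155 and 53 bases, and Cd5l held 1, at 66 bases. Chil3 and Clec4f held none in this window. Promoter sequence was at hand for 7 of the 9 measured genes, of which 4 (Marco, Mrc1, Vsig4 and Cd5l) contained the letters, beside 23.3% of 32851 promoters of the same length. Another searched motif, TGGGAA on either strand, was in 3 of the 7, beside 21.6% of promoters. A match is a match of letters and not a measured binding site.

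Between 34.9% and 58.6% of probes were well above background in Cy5 on a lung array, between 36.3% and 48.3% on a liver array and between 21.3% and 53.3% on a forestomach array. Markers of the labelled tissues stood where the labels put them, with mean log2 ratios of 6.33 to 6.93 for 5 lung epithelial genes in lung, 7.18 to 8.33 for 5 hepatocyte genes in liver and 3.98 to 5.32 for 6 squamous epithelial genes in forestomach. Lung and forestomach arrays shared 5 slides, each with 1 array of every dose and tissue, whereas liver arrays lay on 3 slides of their own, so that for liver against the other tissues slide and tissue cannot be told apart. With slide as a random block (estimated correlation 0.273), or with the mouse as a block, no call of a member between tissues changed.

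Several arrays carried high values of another tissue's genes. Of these, 5 were picked after their values were seen, and 3 of the 5 stood apart from the other 19 of their tissue. Lung of D0 mouse 1 had a mean log2 ratio of 4.32 over the squamous list (others up to 0.10) and 4.87 over 5 skeletal muscle genes (others up to 0.53). Lung of D3 mouse 20 had 4.95 over the hepatocyte list (others up to 1.07), and forestomach of D0 mouse 2 had 5.18 over the lung epithelial list (others up to 1.90). The other 2 were the top of a continuous range. Lung of D1 mouse 8 had 4.09 over 5 fat cell genes (others up to 3.67), and forestomach of D2 mouse 15 had 5.34 over the hepatocyte list (others up to 4.75, median 2.40). Hepatocyte genes were above background on many forestomach arrays, such as Apoa1 and Ttr on 15 of 20 each. These 5 arrays also held extreme values of several members. A further array, forestomach of D0 mouse 5, had 4.98 over the fat cell genes (others up to 3.24) and was not among the 5.

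Chil3 and Marco were the lung members. Chil3 ranged from 4.31 to 7.11 (median 5.38) over the 20 lung arrays, from -2.08 to -0.99 (median -1.68) in liver and from -2.62 to 1.39 (median -1.28) in forestomach. The lung arrays overlapped with neither other tissue, and Chil3 was well above background on all 20 lung arrays but on 3 in liver and 7 in forestomach. Lung exceeded liver by 7.10 ± 0.25 (SE) and forestomach by 6.60 ± 0.25 on the log2 scale (adjusted p = 4.08e-32 and 5.07e-30, limma), and did so in 20 of 20 mice in both comparisons. The other tissues were mostly at background, so that these are not measured sizes, and background-subtracted signals gave 9.06 and 8.39. The highest forestomach value, 1.39, belonged to the D0 mouse 2 array with the high lung epithelial genes, and without the 5 arrays the lung excess over forestomach was 6.68 ± 0.23. The probe of its close relative Chil4 did not follow this pattern, with 0.10 to 0.74 in lung and -0.12 to 7.30 (median 0.90) in forestomach. Chil4 was above background on 7 lung and 10 forestomach arrays. The value of 7.30 was that of D2 mouse 15, among the 5 arrays, and the forestomach vehicle arrays, at -0.12 to 0.64, were not above background.

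Marco ranged from 2.31 to 5.79 (median 4.19) in lung, from 0.98 to 3.22 (median 1.87) in liver and from -0.24 to 2.93 (median 0.09) in forestomach. It was well above background on every lung and liver array and on 8 in forestomach. Lung exceeded liver by 2.35 ± 0.25 and forestomach by 3.94 ± 0.25 (adjusted p = 2.97e-12 and 3.58e-20), and liver exceeded forestomach by 1.60 ± 0.25 (adjusted p = 1.28e-07), so that the order lung, liver, forestomach held for every neighbouring pair. Forestomach was mostly at background, so that the differences from it are not measured sizes, and background-subtracted signals gave 4.99 for lung and 2.96 for liver. Single arrays of neighbouring tissues overlapped, although Marco was higher in lung than in liver in 20 of 20 mice and higher in liver than in forestomach in 18.

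Mrc1 was high in lung and liver alike. It ranged from 2.55 to 5.46 (median 4.07) over 19 lung arrays, from 2.49 to 4.63 (median 4.12) in liver and from 0.50 to 4.06 (median 2.75) in forestomach. Lung and liver differed by 0.15 ± 0.27 (95% interval -0.38 to 0.68, adjusted p = 0.605), an interval that does not leave out a 1.5-fold excess in lung. Both exceeded forestomach, lung by 1.81 ± 0.27 and liver by 1.66 ± 0.26 (adjusted p = 3.07e-08 and 1.40e-07).

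Of the 9 genes, Mrc1 had the largest share of its variance between slides in lung and in forestomach. That share was 91.8% of the within-dose variance in lung and 87.0% in forestomach, beside 26.7% and 25.0% of the degrees of freedom. Slide means ran from 3.31 (slide 2) to 5.13 (slide 5) in lung and from 0.99 to 3.69 on the same slides in forestomach. The share of probes above background ran the same way, from 39.0% on slide 2 to 58.4% on slide 5 in lung and from 24.6% to 50.7% in forestomach. Over single arrays the r of Mrc1 with this share was 0.77 in lung and 0.94 in forestomach, and the part of the share in the Mrc1 values was not tested. Within each of the 5 shared slides lung exceeded forestomach, by 1.00 to 2.46, and Chil3 (5.67 to 8.00), Marco (2.92 to 5.10) and Csf1r (1.85 to 2.37) did so too.

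**Figure D1:**
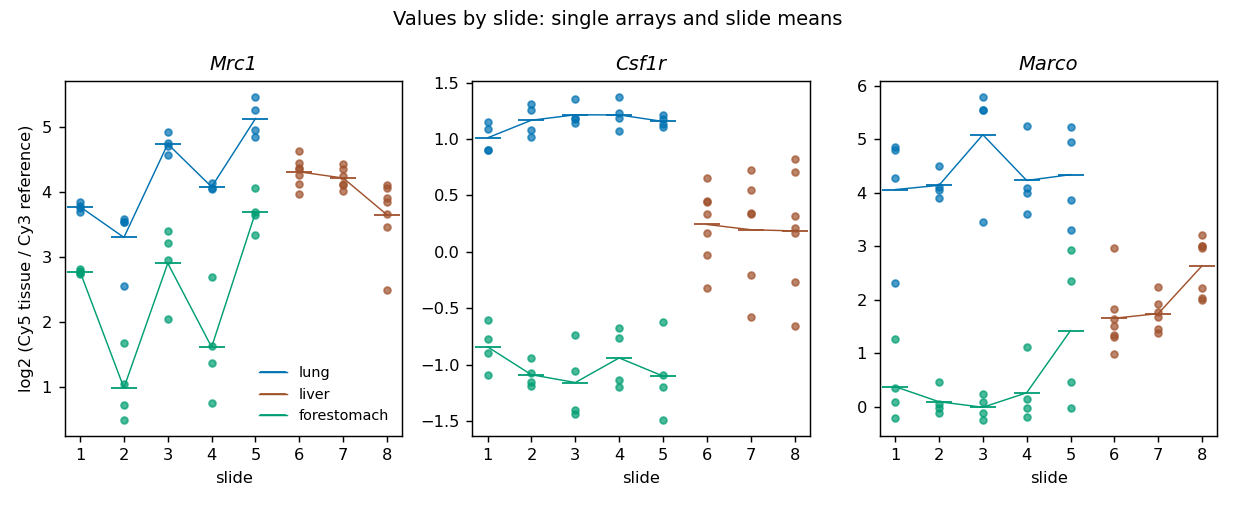
Log2 ratios of Mrc1, Csf1r and Marco (vertical axes) on each of the 8 slides (horizontal axes), with single arrays as points and slide means as bars joined by lines within a tissue. Mrc1 runs in parallel in lung and forestomach, lowest on slide 2 and highest on slide 5, while lung and forestomach stay apart on every shared slide for Csf1r.

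Clec4f, Vsig4 and Cd5l were the liver members, and their liver arrays overlapped with no array of another tissue. Clec4f ranged from 5.64 to 6.97 (median 6.35) in liver, from -0.34 to 0.25 in lung and from -0.22 to 0.80 in forestomach. It was well above background on all 20 liver arrays, on none in lung and on 1 in forestomach. Since lung gave no measured level, the liver value there is a bound, at least 55.7-fold higher, counted as the liver mean against the lowest signal that passes for well above background on each lung array. Against forestomach, the fitted difference was 6.31 ± 0.08 (adjusted p = 1.37e-52, limma), with a forestomach level that was measured on that 1 array. Clec4f passed the background filter in liver alone, so that this call follows from the filter as well.

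Vsig4 ranged from 5.37 to 6.70 (median 6.20) in liver, from -0.04 to 2.18 (median 0.40) in lung and from -0.07 to 3.74 (median 0.83) in forestomach. It was above background on 20, 4 and 12 arrays of the 3 tissues. The difference was -5.63 ± 0.23 for lung minus liver and 5.04 ± 0.23 for liver minus forestomach (adjusted p = 3.03e-29 and 5.46e-27). Lung minus forestomach came to -0.58 ± 0.23 (adjusted p = 0.0185), just short of the 1.5-fold minimum, and to -0.70 ± 0.18 without the 5 arrays (adjusted p = 0.000562), which passed it. Within slides it ran from -1.70 to 0.55, and slides took 64.5% of the within-dose variance of Vsig4 in forestomach.

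Cd5l ranged from 5.46 to 7.17 (median 6.75) in liver, from -0.24 to 1.22 in lung and from -0.18 to 2.28 in forestomach, above background on 20, 4 and 3 arrays. The difference was -6.26 ± 0.14 for lung minus liver and 6.29 ± 0.14 for liver minus forestomach (adjusted p = 1.53e-40 and 2.91e-40), while lung and forestomach differed by 0.03 (95% interval -0.25 to 0.32). Cd5l passed the background filter in liver alone, so that its calls follow from the filter as well. The highest lung value, 1.22, was that of D3 mouse 20, and the highest forestomach value, 2.28, that of D2 mouse 15, the arrays with the highest mean over the hepatocyte list in their tissues. Forestomach of D2 mouse 15 also held the highest forestomach values of Clec4f (0.80), Vsig4 (3.74), Marco (2.93) and Timd4 (1.03). The part of the hepatocyte signal in these values was not tested.

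Timd4 was measured at a lower signal. It ranged from 0.64 to 1.63 (median 1.10) in liver, above background on 19 arrays, from 0.05 to 0.76 in lung and from -0.37 to 1.03 in forestomach, above background on 2 arrays each. The difference was -0.75 ± 0.08 for lung minus liver and 0.90 ± 0.08 for liver minus forestomach (adjusted p = 2.89e-12 and 7.15e-15), with a few arrays overlapping. Timd4 passed the background filter in liver alone, so that its calls follow from the filter as well. For Clec4f, Cd5l and Timd4 in lung and forestomach, and for Vsig4 in lung, values were mostly at background, so that the fitted differences are not measured sizes. The size of this difference depended on the background. In the reference channel Timd4 was well above background on 1 of 60 arrays, Vsig4 on 0, Cd5l on 6, Clec4f on 18, Mrc1 on 32, Marco on 59 and Chil3, Adgre1 and Csf1r on 60. Of the 18 arrays for Clec4f, 17 were liver arrays, and of the 6 for Cd5l, 5 were. With background-subtracted signals the fitted lung minus liver value was -3.40 for Timd4, -8.21 for Vsig4 and -7.74 for Cd5l, beside lung levels above background on 2, 4 and 4 arrays.

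**Figure D2:**
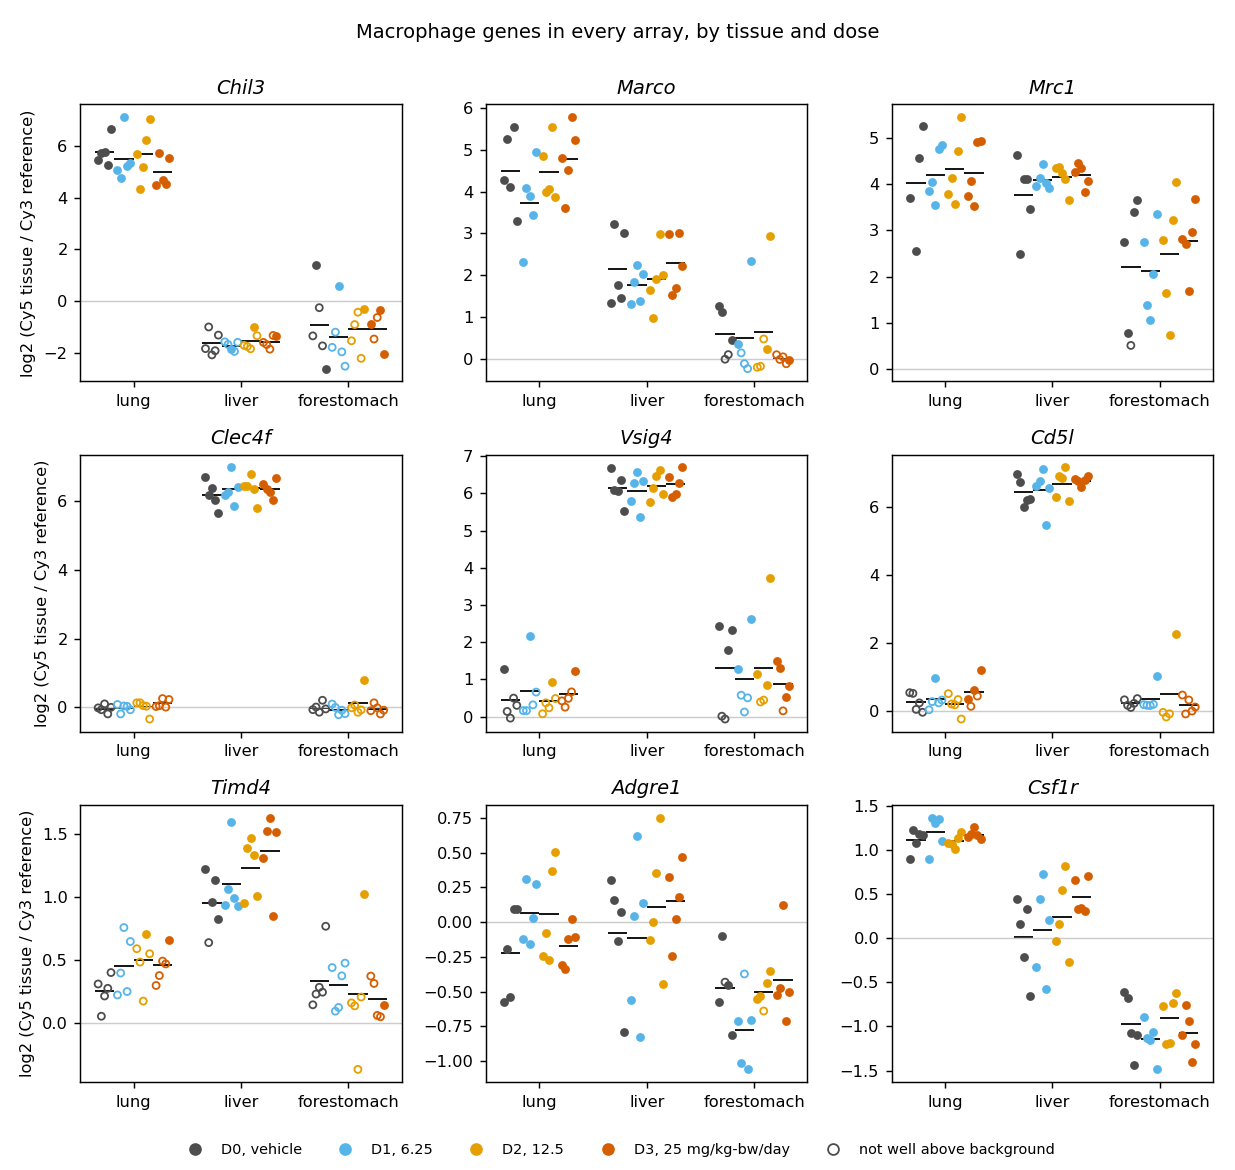
Log2 ratio of tissue to reference RNA (vertical axes) for the 9 measured genes on each of the 60 arrays, grouped by tissue and coloured by dose, with dose-group means as bars and open circles for arrays on which the probe was not well above background. Chil3 lies above 4 in lung alone, and Clec4f, Vsig4 and Cd5l lie above 5 in liver alone.

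Of the members shared by most macrophages, Adgre1 differed least. It ranged from -0.57 to 0.51 (median -0.11) in lung, from -0.83 to 0.75 (median 0.06) in liver and from -1.06 to 0.12 (median -0.53) in forestomach, and all 3 tissues overlapped. Lung minus liver was -0.08 ± 0.10 (95% interval -0.29 to 0.13), and forestomach lay below them by 0.47 ± 0.10 and 0.56 ± 0.10 (adjusted p = 6.63e-05 and 4.16e-06), 1.39-fold and 1.47-fold and so under the minimum for a call. Its other probe gave smaller differences in the same direction, 0.24 and 0.28.

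Csf1r ranged from 0.90 to 1.37 (median 1.16) in lung, from -0.65 to 0.82 (median 0.32) in liver and from -1.49 to -0.61 (median -1.08) in forestomach. Lung overlapped with neither tissue, exceeding liver by 0.94 ± 0.09 and forestomach by 2.18 ± 0.09 (adjusted p = 2.43e-13 and 1.98e-27), and liver exceeded forestomach by 1.23 ± 0.09 (adjusted p = 1.85e-17). The 3 probes disagreed on lung against liver. The dimmer probes, A_52_P602091 and A_55_P2025073, gave 0.24 and -0.17, and both kept forestomach lowest, by 0.83 and 0.27 below lung. The direction between lung and liver is thus not settled for Csf1r. The lung arrays were the tightest, with an SD of 0.13 over 20 arrays against 0.43 in liver.

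Of the 9 genes, 7 passed both limits (adjusted p up to 0.05 and at least 1.5-fold) when lung was set against liver. Lung against forestomach gave 4, and liver against forestomach gave 7. Over all genes, each read by its brightest probe, 54.9%, 43.5% and 49.5% of 15508 passed in the same 3 comparisons. The members' counts are read against those shares, and 4 of 9 in lung against forestomach is near the share of all genes. Clec4f, Cd5l and Timd4 entered these tests through liver alone, so that their calls follow from the filter as well. Without the 5 arrays named above, lung minus liver was 2.32 for Marco, 0.18 for Mrc1, 0.95 for Csf1r and -0.05 for Adgre1, and lung minus forestomach was 4.10, 1.84, 2.22 and 0.54. Liver minus forestomach was then 1.77, 1.66, 1.27 and 0.59, the last of which passed as a call (adjusted p = 3.88e-06, limma), but not when forestomach of D0 mouse 5 was left out too (0.57). Lung minus liver was then -6.36 for Cd5l and -0.78 for Timd4. In a bulk sample, fewer macrophages and less RNA per macrophage cannot be told apart.

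**Figure D3:**
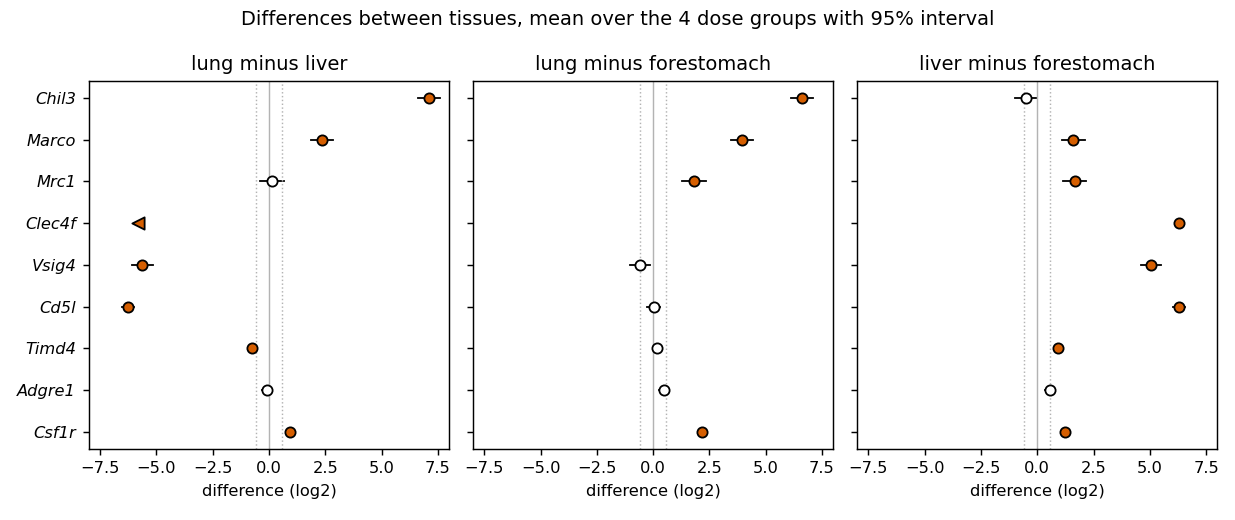
Differences in log2 ratio between tissues (horizontal axes) for the 9 genes, as means over the 4 dose groups with 95% intervals, filled where called and with dotted lines at the 1.5-fold minimum. Clec4f was not well above background on any lung array, so that a triangle marks its bound for lung against liver and no point is drawn for lung against forestomach. For lung minus liver, Chil3 lies at 7.10, and Adgre1 stays within 1 of 0 in every panel.

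Other genes of these cells were taken from lists of cell type genes. The lists were chosen with earlier results of these data known, so that their counts beside shares of all genes are a description and not a test. Of the alveolar macrophage list, 13 genes passed the background filter in lung, 11 in liver and 12 in forestomach, and of the Kupffer cell list 10, 11 and 8. A call of a gene that passed in a single tissue follows from the filter as well. Of 14 genes linked to alveolar macrophages, 10 were higher and 0 lower in lung than in liver, and 10 were higher and 3 lower in lung than in forestomach, with median differences of 2.83 and 1.66. Over all probes the median differences were 0.06 and 0.01. Of all genes, 32.2% were higher and 22.8% lower in lung than in liver, and 23.7% were higher and 19.8% lower in lung than in forestomach. The eosinophil-associated ribonuclease Ear2 was higher in lung by 4.07 and 5.09 and the integrin Itgax by 4.01 and 3.34. The 3 that were lower included the fatty acid-binding protein Fabp5 (-5.11) and the regulator Pparg (-1.10), which squamous epithelium and fat cells also use.

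Of 11 tested Kupffer cell genes, 8 were higher in liver than in lung and 1 lower, and 8 were higher in liver than in forestomach and 0 lower, with median differences of -1.01 for lung minus liver and 1.87 for liver minus forestomach. Of all genes, 22.8% were lower in lung than in liver, and 21.8% were higher and 27.7% lower in liver than in forestomach. Lung minus liver was -4.19 for the complement component C6, also made by hepatocytes, and -3.32 for the iron exporter Slc40a1, and the sterol receptor Nr1h3 was higher in liver than in forestomach by 4.45. Id3, an inhibitor of DNA-binding factors, was the gene higher in lung, by 0.80. The 9 genes of sinusoidal and lymphatic endothelium were divided, with 3 higher and 4 lower in lung than in liver (median -0.05). Lyve1 (4.79) and Cdh5 (4.23) were higher in lung, whereas Clec4g (-5.45) and Stab2 (-5.23) were lower. Clec4g ranged from 6.53 to 7.63 in liver and from 0.65 to 2.59 in lung, and Stab2 from 5.01 to 5.87 and from -0.18 to 0.72.

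Of 20 genes of macrophages in general, 11 were higher and 4 lower in lung than in liver, 13 were higher and 0 lower in lung than in forestomach, and 9 were higher and 3 lower in liver than in forestomach. The shares of all genes were 32.2% and 22.8%, 23.7% and 19.8%, and 21.8% and 27.7%. Lysozyme Lyz2, also made by alveolar epithelium, was higher in lung by 4.39 and 3.75, and the complement subunit C1qc was lower in lung than in liver (-1.40). Of 8 growth factors and receptors, 7 were higher in lung than in liver, among them Csf2, the growth factor on which alveolar macrophages depend, by 1.80 and Tgfb1 by 1.73. In lung against forestomach 6 were higher, led by the Csf2 receptor subunits Csf2rb (2.03) and Csf2ra (1.97), and the Csf1r ligand Il34 was lower in liver than in forestomach (-1.71).

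Markers of other blood cells differed between the tissues as well. Lung was higher than liver for 5 of 5 monocyte genes, 5 of 7 neutrophil genes and 4 of 5 B cell genes, and higher than forestomach for 4, 4 and 4 of them, beside 32.2% and 23.7% of all genes. Of the neutrophil genes 1, Mpo, was lower in lung than in forestomach (-0.66), beside 19.8% of all genes. Of the T cell genes 4 of 6 were higher in lung than in liver and 1, Cd4, was lower (-3.31), and of the dendritic cell genes 2 of 5 were higher and 0 lower. Some of these genes entered the tests through lung alone, since 5 B cell genes passed the background filter in lung but 2 in liver and 1 in forestomach, and a call then follows from the filter as well. Their mean log2 ratios in lung ran from 0.21 to 1.66 for monocytes, from 1.23 to 2.81 for neutrophils and from 0.22 to 1.91 for B cells. Mast cell genes were lower in liver than in forestomach for 5 of 6 genes, beside 27.7% of all genes, and 2 of the 6 passed the filter in liver. Without the 5 arrays, the called counts given for these lists were the same, except that 2 and not 3 genes of macrophages in general were lower in liver than in forestomach.

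Dose was asked of each tissue against its vehicle group. No member was called at any dose in any tissue, with 5 genes tested in lung, 8 in liver and 6 in forestomach, and neither was any probe on the array, 0% of those tested in each of the 9 comparisons (limma), although 378 to 3147 probes had an unadjusted p under 0.05. At an unadjusted p under 0.05, a single member passed, Timd4 in liver at D3, where 12.2% of liver probes did. The other dose settings, residual shuffling included, called none of the members either. The authors of the study reported differentially expressed genes for BghiP in each of these tissues at the same limits, by their own test and normalization. The absence of calls over all probes is thus that of the fits used here.

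In liver the members lay above vehicle at D3 in 8 of 8 cases, with a median of 0.28 and a range of 0.12 to 0.45, while 49.8% of all liver probes lay above 0. At D2 it was 7 of 8 and at D1 5 of 8. Single mice moved the D3 values. Without vehicle mouse 5 the difference was 0.05 for Adgre1 (0.23 with all mice), 0.04 for Clec4f (0.18), 0.29 for Csf1r (0.45) and -0.04 for Vsig4 (0.12). Without vehicle mouse 1 it was -0.08 for Marco (0.13), and without vehicle mouse 2 it was 0.11 for Mrc1 (0.43). Most of these genes varied together from mouse to mouse, so that the 8 are not separate observations. Timd4 in liver was 1.22, 0.64, 0.96, 1.13 and 0.83 in D0 and 1.31, 1.53, 1.63, 0.85 and 1.51 in D3. The groups overlapped through the D3 value of 0.85. The change was 0.41 ± 0.16 (adjusted p = 0.303, limma), and 0.45 ± 0.14 with slide as a fixed block (adjusted p = 0.116), and it was above 0 within each of the 3 liver slides, from 0.20 to 0.58.

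Csf1r in liver was 0.45, 0.17, -0.21, 0.34 and -0.65 in D0 and 0.66, 0.33, 0.35, 0.31 and 0.71 in D3. The D3 values of 0.66 and 0.71 lay above every D0 value, and the other 3 lay within the D0 range. The difference was 0.45 ± 0.24 (adjusted p = 0.468), or 0.29 without vehicle mouse 5, and the dimmest probe gave -0.05. Slopes on dose in liver were above 0 for 8 of 8 members. None passed adjustment (limma, smallest adjusted p = 0.189, Timd4), 2 had an unadjusted p under 0.05, beside 14.8% of liver probes, and 0.239% of liver probes were called. By its dimmest probe the slope of Csf1r was -0.0041. With background-subtracted signals the slope of Clec4f and its D3 change were below 0. Of the Kupffer cell list, 7 of 11 genes lay above vehicle at D3, beside 49.8% of all liver probes, and none was called. At an unadjusted p under 0.05 (limma), 2 of the 11 passed, beside 12.2% of liver probes. The ficolin Fcna, named after its values were seen, had a difference of 0.74 ± 0.22 (adjusted p = 0.208).

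In lung, Chil3 was 5.44, 5.72, 5.75, 5.27 and 6.66 in D0 and 4.46, 5.72, 4.68, 4.51 and 5.51 in D3. The groups overlapped, and the difference of -0.79 ± 0.46 did not pass (adjusted p = 0.998). It was below 0 within 5 of 5 slides, from -1.14 to -0.003. The difference was 0.29 ± 0.50 for Marco and 0.23 ± 0.49 for Mrc1, or 0.12 and -0.06 without the 5 arrays, and the 95% interval for Csf1r was narrow, -0.12 to 0.25. In forestomach 0 of 6 members lay above vehicle at D1, 4 at D2 and 2 at D3, beside 46.2%, 55.6% and 52.3% of all forestomach probes, and the intervals were wide, as for Marco (-0.59, interval -1.69 to 0.51) and Chil3 (-0.17, interval -1.53 to 1.20, or 0.41 without the 5 arrays and 0.03 without forestomach of D0 mouse 5 as well). Whether the D3 change differed between tissues was tested for the 9 members, and 0 were called in the 3 pairs of tissues, as for 0% of all probes (limma). At an unadjusted p under 0.05, 2 genes passed for liver minus forestomach, beside 4.26% of all probes, Csf1r (0.55 ± 0.26) and Timd4, whose value is not read here because Timd4 was well above background on 2 of 20 forestomach arrays. Likewise, differences that involve a tissue where a gene was near background give no measured change there.

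**Figure D4:**
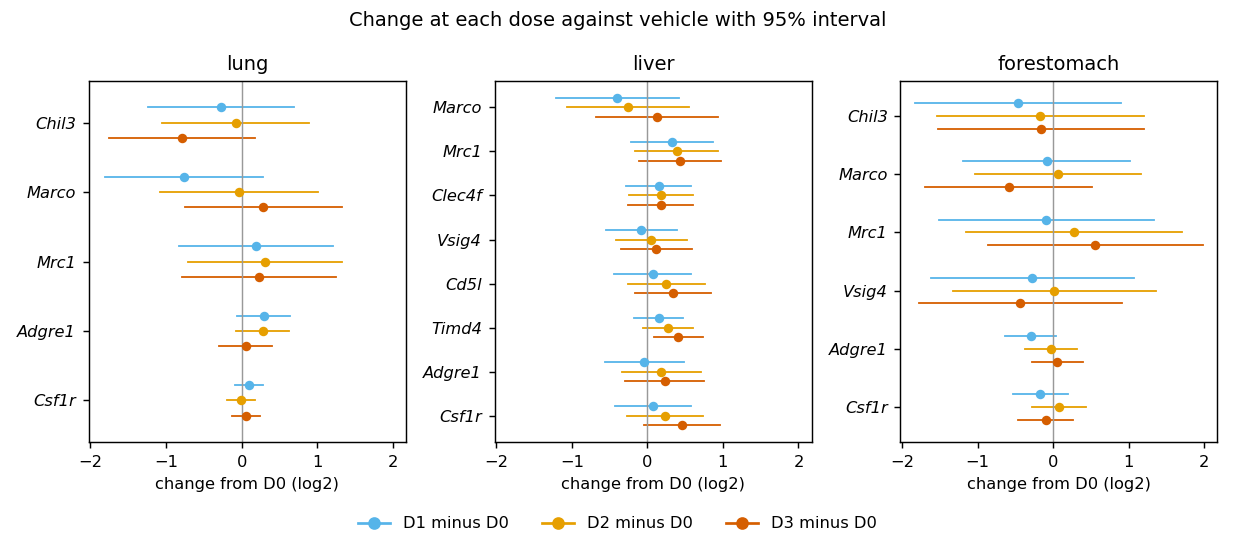
Change in log2 ratio against vehicle (horizontal axes) at D1, D2 and D3 for the members tested in each tissue, with 95% intervals. Liver points at D3 all lie to the right of 0, and the interval of Timd4, 0.08 to 0.74, is the liver one that leaves 0 out.

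Mouse-to-mouse variation within dose groups showed which members moved together. Over the 20 arrays of a tissue, with dose-group means removed, 53 pairs were tested by 100000 shufflings within dose groups. After adjustment over the 53 pairs, 14 of 28 pairs passed in liver, 1 of 10 in lung and 3 of 15 in forestomach.

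In liver, Adgre1 and Csf1r were the closest pair, with r = 0.96 and rho = 0.91 (permutation, adjusted p = 0.000265 for both), 0.93 without the 2 arrays farthest from the median and 0.97 with slide means removed. Vsig4 joined them, with r = 0.93 for Adgre1 (rho = 0.95) and 0.92 for Csf1r (rho = 0.90). Cd5l followed Csf1r at 0.79, Adgre1 at 0.77 and Vsig4 at 0.76, and Clec4f followed Adgre1 at 0.76, Csf1r at 0.75, Vsig4 at 0.72 and Cd5l at 0.65. The 4 pairs with Clec4f no longer passed without the 2 farthest arrays (r of 0.57 to 0.59, adjusted p = 0.0813 by permutation). Mice 5, 9 and 15 lay below their dose-group means in all 5 genes, and mice 1 and 8 above. Slides took 0.69% of the liver variance of Vsig4, 0.72% of that of Csf1r and 1.48% of that of Adgre1, under the 12.5% of their degrees of freedom.

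Timd4 followed Mrc1 (r = 0.66, rho = 0.74, adjusted p = 0.0029), Clec4f (0.64) and Csf1r (0.55), of which the pairs with Clec4f and Csf1r did not pass without the 2 farthest arrays (0.51 and 0.57, adjusted p = 0.163 and 0.0813). Marco did not share the pattern. Its r with the 5 core genes ran from -0.13 for Clec4f to 0.29 for Adgre1, none past adjustment. With slide means removed these ran from 0.15 for Vsig4 to 0.34 for Adgre1, again none past adjustment. The relation of Marco to Mrc1 was negative, r = -0.64 (rho = -0.66, adjusted p = 0.0366), but -0.30 with slide means removed (adjusted p = 0.308). Slides took 47.0% of the liver variance of Marco and 50.3% of that of Mrc1.

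**Figure D5:**
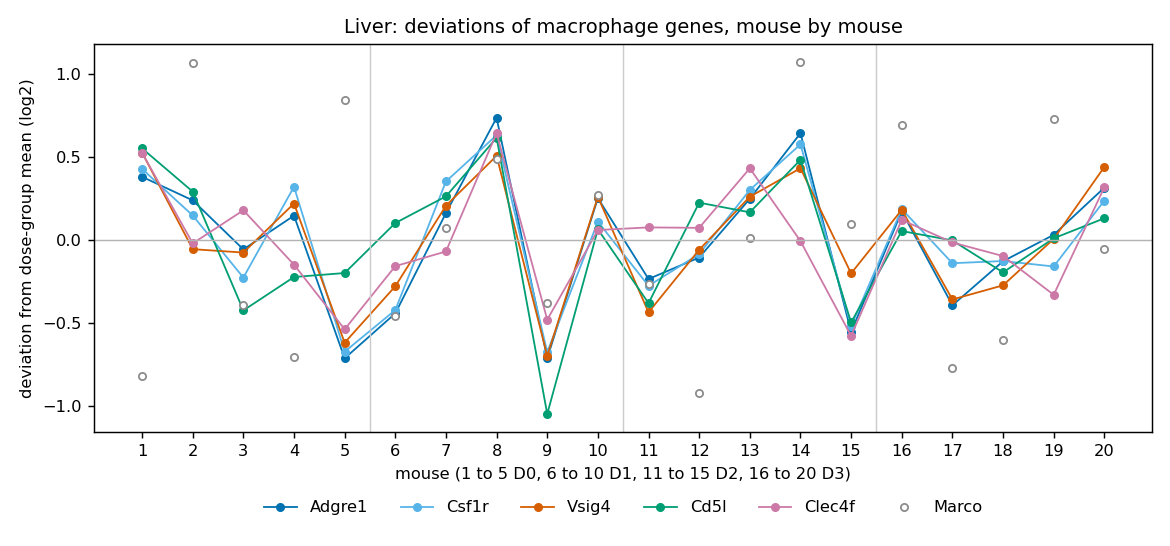
Deviation of the liver log2 ratio from the dose-group mean (vertical axis) for each of the 20 mice (horizontal axis), with dose groups separated by vertical lines. Adgre1, Csf1r, Vsig4, Cd5l and Clec4f deviate together, below 0 in mice 5, 9 and 15 and above 0 in mouse 8, while the open circles of Marco do not follow them.

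In lung the pair that passed was Mrc1 with Adgre1 (r = 0.81, adjusted p = 0.0048), which was 0.33 with slide means removed (adjusted p = 0.299). With array brightness removed that pair was 0.77 (adjusted p = 0.0030 by permutation). Adgre1 and Csf1r, so close in liver, had r = 0.49 in lung (adjusted p = 0.0823), or 0.62 with array brightness removed (adjusted p = 0.0172 by permutation). In forestomach Mrc1 followed Vsig4 at r = 0.83 (adjusted p = 0.0015), 0.81 without the 2 farthest arrays, 0.66 with slide means removed (adjusted p = 0.0186) and 0.27 with array brightness removed. Marco followed Vsig4 at 0.73 (adjusted p = 0.0378), or 0.20 without the 2 farthest arrays. That pair was 0.64 with slide means removed and 0.65 with array brightness removed (adjusted p = 0.0344 and 0.0153 by permutation). Chil3 ran against Mrc1 at -0.69 (adjusted p = 0.0134), or -0.29 with array brightness removed. Marco and Chil3 were above background on 8 and 7 of the 20 forestomach arrays, so that relations with them rest mostly on signal at background.

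The genes most like each member were listed by r over the same 20 arrays, as a description without a test. In liver these were Ly86 (0.97), Csf1r (0.96) and the macrophage protease Ctss (0.95) for Adgre1, Akr1b8 (0.93), Adgre1 (0.93) and Csf1r (0.92) for Vsig4, the Fc receptor Fcgr4 (0.92), Slc15a3 (0.89) and Lst1 (0.89) for Cd5l, and Dysf (0.90), Csrp1 (0.86) and Rgs2 (0.86) for Clec4f. Timd4 was most like Marchf1, Adcy4 and the purine receptor P2ry13, at 0.87, 0.87 and 0.86. In lung, Mrc1 was most like Mcemp1, Grik4 and F7, at 0.98 each over 19 arrays, values that were taken without removing slide means, although 91.8% of the lung variance of Mrc1 lay between slides. Marco was most like Arl8b (0.81), Trim12a (0.79) and Trim34a (0.74), Chil3 like Senp8 (0.80), Nrros (0.775) and the lipase Lipe (0.76), which fat cells also use, and Csf1r like Zfp955a (0.865), Zscan26 (0.81) and Zfp664 (0.80).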

How the data were processed

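RNA of 60 lung, liver and forestomach samples from 20 mice was hybridized on two-colour oligonucleotide arrays. The deposited scanner files hold, per spot, median and background intensity and processed intensity, written by Feature Extraction (version 10.7.3.1 in the headers). The deposited series matrix holds log2 ratios of median signals, not background-subtracted, to which the authors had applied LOWESS; the log2 ratios computed here correlated with them at r of 0.992 to 0.999.

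Control spots (3671 of 62976) were left out, and spots with an outlier flag were set to missing. Log2 ratios of median signals were normalized by loess within arrays (limma 3.58.1, R 4.3.3), and spots were averaged by probe. A probe entered a tissue's fits when 5 or more of the 20 arrays had it well above background in Cy5, which left 31022, 25893 and 25070 probes in lung, liver and forestomach and 33255 in any tissue. 1 forestomach value of Cd5l and 1 lung value of Mrc1 were missing and were left out of their fits. The number of arrays limits the precision. Dose and tissue contrasts were fitted in limma (lmFit, eBayes), with Benjamini-Hochberg adjustment over all probes of the fit; slopes on dose had no minimum fold. The script was tested on simulated data. Relations used Python 3.11.15, NumPy 2.4.6, pandas 2.3.3 and SciPy 1.17.1.

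Symbols came through RefSeq accessions for 26413 probes; promoter sequence is RefSeq's, GRCm38.p6, whereas the file headers name build mm9. Mouse numbers mark the same animal in every tissue per the labels; deviations of same-numbered arrays correlated at a median r of 0.05 for lung and liver, 0.21 for lung and forestomach and -0.001 for liver and forestomach. All members are named, with, of each list of cell type genes, at most the 2 largest called differences per direction and comparison. The 3 genes most like each member are those in the tissue of its highest mean log2 ratio by its brightest probe. For Mrc1 and Csf1r this was lung, although the order of lung and liver is not settled for them. Further list genes, marker genes and Chil4 were named after their values were seen. Members and lists were chosen with earlier results of these data known. Alternatives changed the background correction, signals, normalization, filter, variance model, block, probe and test, and left out each mouse. The versions without 5 or 6 arrays and that with array brightness removed were chosen after seeing the data.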

Additional observations from a re-analysis of the deposited data

Results flagged for a closer look

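Within single groups of 5 mice, 6 of 76 groups tested held a value far from the other 4 (Dixon's test, critical value 0.71), where chance gives about 1 in 20. Vsig4 reached 3.74 and Marco 2.93 in forestomach of D2 mouse 15, the array with the highest hepatocyte genes of its tissue, where the next values of the group were 1.15 and 0.47. Marco was 2.35 in forestomach of D1 mouse 10, against 0.35 for the next. Adgre1 was 0.12 in forestomach of D3 mouse 18, against -0.48 for the next. Chil3 was 7.11 in lung of D1 mouse 8, the array with high fat cell genes, against 5.32 for the next. Timd4 was 1.60 in liver of D1 mouse 8, against 1.06 for the next, and the same liver array was high in Adgre1, Csf1r, Vsig4, Cd5l and Clec4f.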

How the results depend on the processing

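Counts of called members (7, 4 and 7 between tissues and 0 for every dose, slope and dose-by-tissue comparison) stayed within 1.5 times of these under every alternative run, leaving out each mouse included. The mouse as a replicate block changed no call of a member; with it Mrc1 was higher in liver than in forestomach by 1.66 ± 0.22. Pairs of related members fell in lung from 1 to 0 with slide means removed or the deposited ratios and rose to 3 with array brightness removed, and without the 2 farthest arrays fell in liver from 14 to 8 and in forestomach from 3 to 1. Small differences changed sign under some settings. For lung minus liver, Mrc1 was -0.098 with processed signals and -0.12 with deposited ratios, and Csf1r -0.17 by probe A_55_P2025073. For lung minus forestomach, Clec4f was -0.38 with processed signals, -0.0802 with quantile normalization of Cy5 and -0.0272 with vehicle arrays alone, and Timd4 was -0.0248 and -0.0832 under the last pair of settings. At D3, Adgre1 in lung was -0.0296 with processed signals and -0.0922 by its other probe, Clec4f in liver -0.41 with processed signals (slope -0.016) and Csf1r in liver -0.0537 by its dimmest probe (slope -0.0041). Without the 5 arrays, D3 changes were -0.0565 for Mrc1 and -0.0499 for Adgre1 in lung and 0.41 for Chil3 in forestomach (0.0339 without forestomach of D0 mouse 5 as well). The cause was not tested. Leaving out each mouse in turn spanned 0 at D3 for Adgre1 in forestomach (-0.0789 to 0.149) and lung (-0.0333 to 0.133), Chil3 in forestomach (-0.59 to 0.41), Marco in liver (-0.0773 to 0.39) and lung (-0.0094 to 0.59), Mrc1 in lung (-0.26 to 0.64) and Vsig4 in liver (-0.0372 to 0.25), and for lung minus forestomach for Cd5l (-0.0297 to 0.21) and Clec4f (-0.0031 to 0.0800). Calls near the fold minimum also moved: Vsig4 between lung and forestomach was called with normexp (-0.62), processed signals (-1.58) and quantile normalization (-0.64), and in 10 of 20 fits that left out 1 mouse (-0.73 to -0.44 over the 20). Adgre1 passed with processed signals (0.85 and 0.95 over forestomach), with deposited ratios (0.69 for liver minus forestomach) and in 3 of 20 fits that left out 1 mouse (up to 0.60), Chil3 passed for liver minus forestomach with quantile normalization (-0.80) and in 2 of 20 such fits (-0.63 to -0.37 over the 20), and Mrc1 between liver and forestomach missed with vehicle arrays alone (1.55, adjusted p = 0.0641). Ratios of genes whose reference signal is near background are limited by that background.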
